A study of Mus musculus with 6 samples.

Results

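The miR-378 family was followed in the left ventricle of male C57BL/6 mice that received sunitinib, a tyrosine kinase inhibitor used against cancer, and of mice of the same strain and sex that received vehicle (the control). Its members were taken by name: mmu-miR-378a-3p, mmu-miR-378a-5p, mmu-miR-378b, mmu-miR-378c and mmu-miR-378d (the prefix, for mouse, is left out from here on except where a member's values are first given), which are 5 of the 1881 mouse miRNAs on the array. There were 3 sunitinib and 3 control samples, and total RNA of each was labelled with Cy3 and hybridised alone to an Agilent mouse miRNA array. The sources used here give neither the age of the mice nor the dose and length of treatment. The labels do not state that the 3 samples of a group are 3 animals; the p-values below therefore describe the spread among these samples alone, part of which may be technical.

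MicroRNAs are short RNAs that guide Argonaute proteins to messenger RNAs, which they recognise mainly through a seed near their 5′ end. The miR-378a hairpin lies in an intron of Ppargc1b, the gene of PGC-1β, a coactivator of mitochondrial and fatty acid oxidation genes, and yields a mature miRNA from each arm. In mice, miR-378a-3p is known to repress Crat, a carnitine acetyltransferase of mitochondria, and its 5p partner to repress Med13, a subunit of the Mediator complex, and mice without the hairpin have a higher oxidative capacity. In heart muscle cells miR-378a-3p is also known to repress the receptor Igf1r and members of the MAP kinase pathway.

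The mature sequences of miR-378b, miR-378c and miR-378d show how alike the family members are, which bears on what each probe can read. Of the 5 members, 3 were matched by name in the RefSeq miRNA table (build GRCm38.p6). Capitals mark the seed, bases 2 to 8 counted from the 5′ end.
miR-378b: cUGGACUUggagucagaaga
miR-378c: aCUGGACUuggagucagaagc
miR-378d: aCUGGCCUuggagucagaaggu

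miR-378b lies on the plus strand at chr11:88352839-88352858, within the span of Msi2, and miR-378c on the minus strand at chr14:46954905-46954925, within the spans of Samd4 and Gm52120. Whether these genes lie on the same strand as the miRNA was not tested. miR-378d lies on the minus strand at chr10:126710355-126710376, where the RefSeq gene table lists no other gene. Positions were counted from 1 at the 5′ end of miR-378c. miR-378d differed from miR-378c by A6C, inside the seed, and by C21G, and it carried 1 more base at the 3′ end. miR-378b lacked the first base of miR-378c and differed from the rest by C21A, so that its seed began 1 base further along the shared sequence. The 3 therefore had 3 different seeds, and 0 other mature miRNAs in the table shared any of them; miR-378a-3p and miR-378a-5p were not among the miRNAs compared. Within the hairpin, the mature sequence takes up bases 4 to 24 of 99 for miR-378c and 16 to 37 of 110 for miR-378d, in the 5′ arm, and bases 67 to 86 of 92 for miR-378b, in the 3′ arm.

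Each member was read by 2 probes of 15 spots each. The 6 probes of miR-378b, miR-378c and miR-378d are shown because they end on the bases by which these miRNAs differ. Capitals mark probe bases that pair with a base of their own miRNA that miR-378c does not have at that position.
miR-378b, 16 bases: Tcttctgactccaagt
miR-378b, 17 bases: Tcttctgactccaagtc
miR-378c, 15 bases: gcttctgactccaag
miR-378c, 16 bases: gcttctgactccaagt
miR-378d, 16 bases: ACcttctgactccaag
miR-378d, 17 bases: ACcttctgactccaagG

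All these probes pair up to the last base at the 3′ end of their miRNA and reach into its seed. For the shorter and longer probe, pairing begins at bases 5 and 4 of miR-378b. It begins at bases 7 and 6 of miR-378c and of miR-378d. The 17-base probe of miR-378d, unlike its 16-base probe, reaches the seed base that sets miR-378d apart. The 17-base probe of miR-378b also pairs with 16 consecutive bases of miR-378c and with 14 of miR-378d. The 16-base probe of miR-378c pairs with 15 consecutive bases of miR-378b and with 14 of miR-378d. How far the probes of miR-378b, miR-378c and miR-378d pair with miR-378a-3p or miR-378a-5p was not tested. Those mature sequences were not matched in the RefSeq miRNA table. Both miR-378a-3p probes, of 13 and 14 bases, are complementary over their whole length to a stretch of miR-378d, and to 12 and 13 consecutive bases of miR-378b and of miR-378c. The probes of miR-378a-5p, of 17 and 18 bases, pair with at most 4 consecutive bases of miR-378b, miR-378c or miR-378d. How much of a probe's signal came from another member was not tested, so the values of miR-378a-3p, miR-378b, miR-378c and miR-378d below are the readings of probes with those names and cannot be taken as independent of each other.

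The 6 arrays shared 1 slide, and 0 spots were saturated. Between 235 and 252 miRNAs were well above background on an array, meaning that at least 50% of the spots of a probe exceeded their background by 13 times its SD. Among 237 miRNAs tested across the groups, 4 rose and 4 fell at an adjusted p of 0.05 in limma, 1.69% in each direction. Of 9 heart muscle miRNAs on the arrays 7 were tested, and miR-1b-5p and miR-206-3p were well above background on 0 arrays. All 6 markers of liver, brain and epithelium, among them miR-122-5p, miR-124-3p and miR-9-5p, were well above background on 0 of the 6 arrays. Summed scaled signals of the brightest probes ran from 528 to 595 in sunitinib and 798 to 1003 in control over 7 leukocyte miRNAs, a sum lower on every sunitinib array. Of the 6 leukocyte miRNAs tested, miR-223-3p, miR-511-3p and miR-142a-3p fell and 3 did not pass. For miR-511-3p only the control arrays met the detection rule. Its sunitinib readings, 2.31 to 2.96, missed it, so the size of its fall is uncertain. When tests were limited to miRNAs detected on every array, 3 instead of 4 fell in all. Of the leukocyte miRNAs that did not pass, miR-146a-5p had a log2 change of -1.02, while miR-155-5p, higher on all 3 sunitinib arrays, had 0.15 and miR-150-5p 0.35. The sums over 6 endothelial miRNAs (10372 to 10813 in sunitinib, 10293 to 11223 in control) and 6 fibroblast miRNAs (3113 to 3468 in sunitinib, 3051 to 4100 in control) overlapped. The endothelial sum was mostly the signal of miR-126a-3p (log2 mean 13.28 in sunitinib, 13.30 in control), so it says little on the others. Of 5 endothelial miRNAs tested 2 changes were above 0 and 3 below. Over 6 fibroblast miRNAs these counts were 2 and 4, and over 2 smooth muscle miRNAs 0 and 2. In these lists 0 passed. In bulk tissue, fewer cells of a type and less RNA per cell cannot be told apart.

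No member of the miR-378 family passed the test between sunitinib and control hearts. All 5 were well above background on all 6 arrays, so all 5 were tested, and their log2 changes ran only from -0.05 to 0.06. Adjusted p of 0.05 was passed by 0 of 5 members, against 3.38% of all tested miRNAs. At an unadjusted p under 0.05 there were 0 of 5, against 19% of the tested miRNAs, and the sunitinib and control arrays overlapped for all 5, while they did not overlap for 27.4% of the tested miRNAs. With so few members these shares do not set the family apart from the rest. The values below are log2 of the scaled signal of each member's brightest probe, and changes are sunitinib minus control from a limma fit over all tested miRNAs with Benjamini-Hochberg adjustment.

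mmu-miR-378a-3p, the 3p strand of the hairpin in Ppargc1b, had 10.38, 10.57 and 10.57 in sunitinib replicates 1 to 3, against 10.51, 10.50 and 10.66 in control replicates 1 to 3. Sunitinib replicate 1 was the lowest and control replicate 3 the highest, and the groups overlapped. Sunitinib replicates 2 and 3 lay above control replicates 1 and 2. The means were 10.51 ± 0.11 in sunitinib and 10.56 ± 0.09 in control (SD, n = 3 each). The log2 change was -0.05 (SE 0.08, 95% interval -0.26 to 0.15, limma adjusted p = 0.776). In linear terms the level in sunitinib was 0.964 times that in control, with an interval of 0.836 to 1.11.

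mmu-miR-378a-5p, the partner strand from the same hairpin, had 8.18, 8.29 and 8.29 in sunitinib, against 8.12, 8.17 and 8.29 in control. Its highest control array lay at the level of the upper pair of sunitinib arrays, and the groups overlapped. Means of 8.25 ± 0.07 in sunitinib and 8.19 ± 0.09 in control (SD, n = 3 each) gave a log2 change of 0.06 (SE 0.07, 95% interval -0.12 to 0.24, limma adjusted p = 0.694). This was the change farthest from 0 among the 5 members, yet 169 of the other tested miRNAs changed by more. Its interval ran from 0.923 to 1.18 times the control level.

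mmu-miR-378b, the member with the shifted seed, had 11.31, 11.40 and 11.28 in sunitinib, against 11.27, 11.28 and 11.39 in control. Each group held a single high array, sunitinib replicate 2 and control replicate 3, and the other arrays lay close together. Sunitinib arrays averaged 11.33 ± 0.06 and control arrays 11.31 ± 0.07 (SD, n = 3 each). The log2 change was 0.02 (SE 0.07, 95% interval -0.15 to 0.18, limma adjusted p = 0.888). It was the smallest change of the 5, and its sign turned under 7 of 22 alternatives of the processing, one of them the deposited value table, so no direction is given for it.

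mmu-miR-378c had 8.59, 8.63 and 8.58 in sunitinib, against 8.67, 8.57 and 8.67 in control. Control replicate 2 was the lowest of all 6 arrays, below every sunitinib array. The means were 8.60 ± 0.03 in sunitinib and 8.64 ± 0.06 in control (SD, n = 3 each). The change, on the log2 scale, was -0.04 (SE 0.06, 95% interval -0.18 to 0.11, limma adjusted p = 0.776).

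mmu-miR-378d, the member with a changed seed base, had 11.46, 11.44 and 11.43 in sunitinib, against 11.38, 11.35 and 11.46 in control. The sunitinib arrays were tightly grouped and lay above 2 of the 3 control arrays, and control replicate 3 was the highest of the 6. The means of 11.44 ± 0.02 in sunitinib and 11.40 ± 0.06 in control (SD, n = 3 each) differed by 0.04 on the log2 scale (SE 0.06, 95% interval -0.10 to 0.19, limma adjusted p = 0.726). Taken 1 member at a time, the 95% intervals of the brightest probes reached as low as 0.836 and as high as 1.18 times the control level. This range is not a joint bound over the 5 members, and the interval of the dimmer miR-378c probe, given below, reached lower. An exact two-sided permutation test over the samples gave p from 0.2 to 0.6 for the 5 members, and 3 samples against 3 cannot give a p below 0.1.

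**Figure D1:**
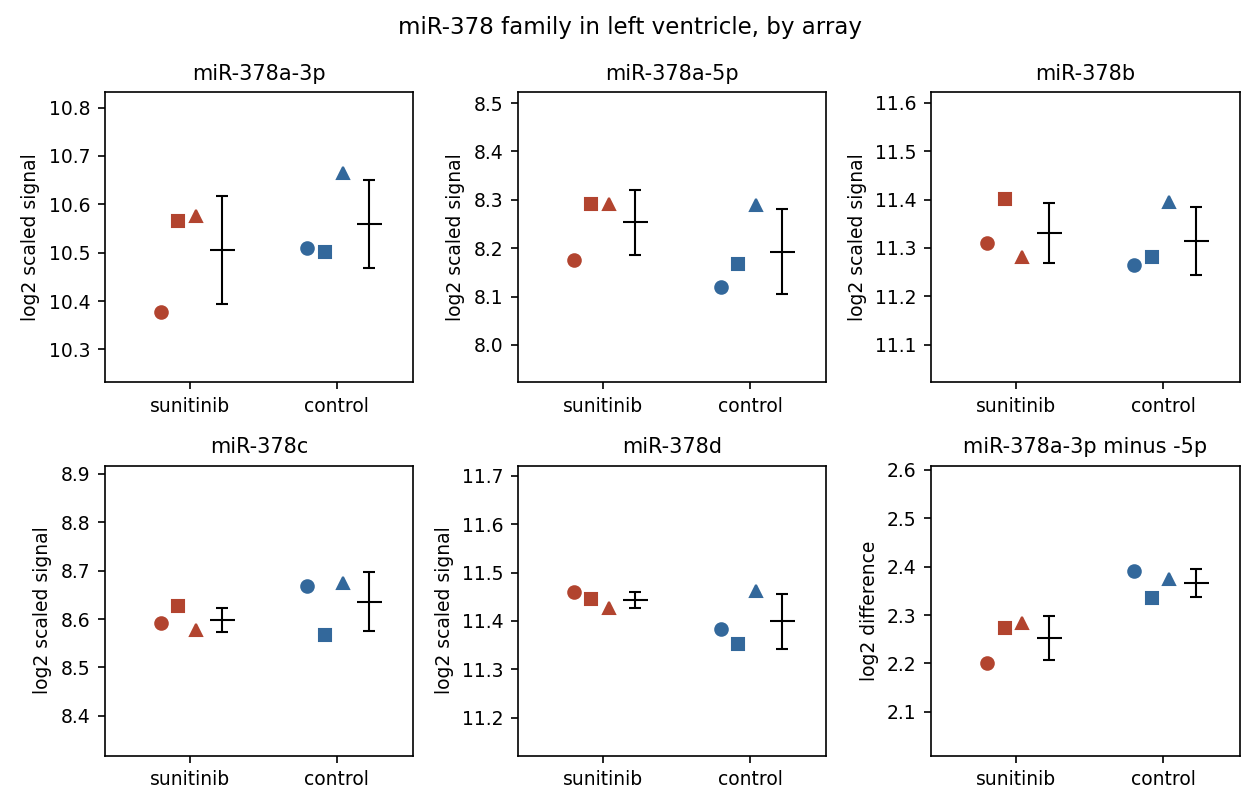
Log2 scaled signal of the 5 miR-378 family members, and the log2 difference between the miR-378a arms, in 3 sunitinib (red) and 3 control (blue) left ventricles; circles, squares and triangles are replicates 1, 2 and 3 and black bars the mean ± SD. The groups overlap for each miRNA (for miR-378c 8.58 to 8.63 in sunitinib and 8.57 to 8.67 in control), while the arm difference is lower on all 3 sunitinib arrays.

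The members shared part of their variation across arrays, whatever the group. On sunitinib replicate 2 and on control replicate 3 all 5 members lay above their own mean over the 6 arrays, by 0.01 to 0.08 and by 0.04 to 0.13 on the log2 scale. On control replicate 2 all 5 lay below it. Control replicate 3 and sunitinib replicate 2 were also the dimmest arrays, with the lowest scaling factors, 0.861 and 0.908, against 0.988 to 1.12 on the other 4. The parts of the scaling, and of probes that pair with more than 1 member, in this shared variation were not tested. It was not particular to the family, since miRNAs outside it, given below, had profiles nearer to that of miR-378a-3p than any other member. The spread of a member about its group means had a median SD of 0.07 over the 5 members and of 0.11 over all tested miRNAs.

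Both probes of each member can be set beside each other, but they read the same RNA on the same arrays and are not independent. For miR-378b, miR-378c and miR-378d the shorter probe lies within the longer. Over the 10 probes, fitted together with all 419 probes that every array of at least 1 group detected well above background, 0 passed an adjusted p of 0.05 in limma, against 3.58% of the probes tested, and 0 passed unadjusted. The change was above 0 for 5 probes and below 0 for 5. For miR-378a-5p the 17-base and the 18-base probe both had 0.06. For miR-378d the 16-base probe had 0.04 and the 17-base probe, which reaches the changed seed base, 0.08 (SE 0.06, limma adjusted p = 0.588). For miR-378b the 17-base and 16-base probes had 0.02 and -0.01, on either side of 0.

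miR-378c had the widest gap between its probes. Its 15-base probe, the dimmest of the 10, had 5.97, 6.07 and 6.11 in sunitinib, against 6.25, 6.10 and 6.28 in control. The lowest control array fell between the sunitinib arrays. The change of that probe was -0.16 (SE 0.08, 95% interval -0.34 to 0.03, limma adjusted p = 0.334), while the 16-base probe had -0.04. On this probe the SD among the spots of an array ran from 0.09 to 0.25 on the log2 scale, against a median of 0.07 over all family probes and arrays. The 14-base probe of miR-378a-3p had -0.05, and the change of its 13-base probe, -0.00055 (SE 0.08), was closer to 0.

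**Figure D2:**
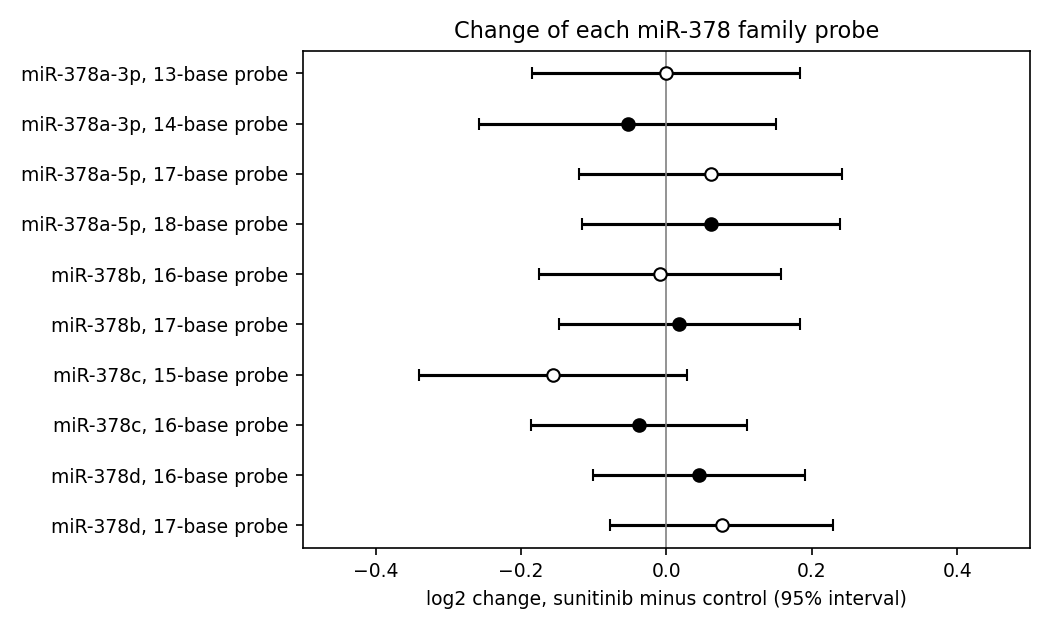
Log2 change, sunitinib minus control, of each of the 10 probes named for the miR-378 family, with its 95% interval from the limma fit over all probes well above background; filled points are the brightest probe of each miRNA. All 10 intervals include 0, and the 15-base probe of miR-378c lies lowest, at -0.16.

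The arms of the miR-378a hairpin were compared within each array, since they come from 1 precursor and share the array's scaling. The log2 signal of miR-378a-3p minus that of miR-378a-5p was 2.20, 2.27 and 2.28 in sunitinib, against 2.39, 2.33 and 2.37 in control. It was lower on all 3 sunitinib arrays than on any control array. The means were 2.25 ± 0.05 in sunitinib and 2.37 ± 0.03 in control (SD, n = 3 each), a difference of -0.11. The 2 probes differ in brightness for reasons other than amount, so only the changes of the 2 readings can be compared, not the ratio of the arms in the tissue. The miR-378a-3p probe is also complementary over its whole length to a stretch of miR-378d, so its reading may hold more than 1 arm of this hairpin. An exact two-sided permutation test over the samples gave p = 0.1, the smallest that 3 against 3 samples allow. Adjusted over the 10 pairs of members compared, this permutation p was 0.5. The test could not reach 0.05 whatever the values, so it cannot decide whether the arm difference changed. Among 20 hairpins with both arms tested the 3p minus 5p difference did not overlap between groups in 45%, so such a split is common on these arrays.

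Of the 10 pairs of members, the groups did not overlap for 2, against 27.3% of all pairs of tested miRNAs. Besides the miR-378a arms this was miR-378c minus miR-378d, with -2.87, -2.82 and -2.85 in sunitinib and -2.71, -2.79 and -2.79 in control. This pair differed by -0.08 (exact permutation p = 0.1, adjusted p = 0.5 over the 10 pairs). The differences of the other 8 pairs ran from -0.10 for miR-378a-3p minus miR-378d to 0.10 for miR-378a-5p minus miR-378c, all with overlapping groups. Pairs other than the arms were compared after the values had been seen.

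Against all tested miRNAs the family lay in the middle of the distribution. The median change was 0.02 over the 5 members and 0.02 over the 237 tested miRNAs, and the median size of change, regardless of sign, was 0.04 over the members and 0.11 over all tested miRNAs. Tested miRNAs with a smaller change than miR-378a-5p numbered 67, or 28.3%, and 15 changed by less than miR-378b. By unadjusted p the members ranked between 149 and 214 of 237.

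**Figure D3:**
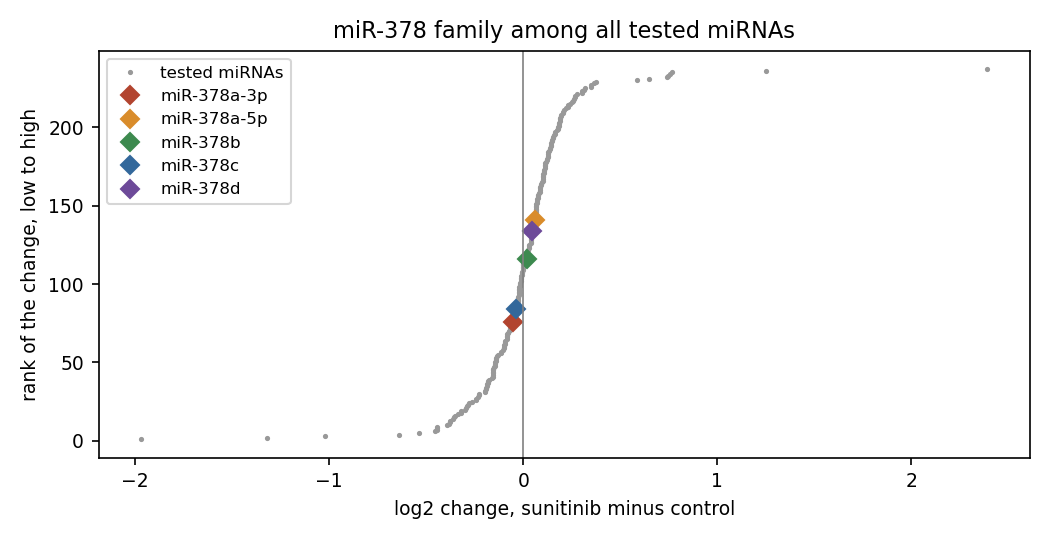
Log2 changes, sunitinib minus control, of the 237 tested miRNAs in rank order from low to high (grey), with the 5 miR-378 family members as coloured diamonds. The members sit between -0.05 and 0.06, while the tested miRNAs run from -1.97 to 2.39.

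The miRNAs whose profile over the 6 arrays was most like that of miR-378a-3p were sought by the root mean square difference between log2 values, each centred on its own mean. Outside the family the nearest were miR-194-5p (0.0486), miR-6366 (0.0487), miR-486a-5p (0.0489) and miR-3620-3p (0.0511), against a median of 0.15 over 236 miRNAs. These 4 had changes of -0.02, -0.05, -0.05 and 0.03, none past the threshold. The other members of the family came further down, miR-378a-5p at rank 11, miR-378b at 18, miR-378c at 19 and miR-378d at 30. A small value of this measure marks a like profile over 6 arrays that share the scaling, and no more.

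Among other miRNAs known to act on energy metabolism, 1 passed the test. Of 30 on the arrays 22 were tested, of which 1 rose, 0 fell and 21 did not pass, so that 4.55% passed, against 3.38% of all tested miRNAs. Their median change was 0.05, against 0.02 over all tested miRNAs, with 16 above 0 and 6 below. miR-210-3p, which is induced by low oxygen and represses the iron-sulfur cluster scaffold gene Iscu, had 6.57, 6.58 and 6.60 in sunitinib, against 6.12, 6.24 and 6.26 in control. All 3 sunitinib arrays lay above all control arrays, and its log2 change of 0.37 (SE 0.06) passed (limma adjusted p = 0.037). That call was lost under 15 of 21 alternatives, including whenever any 1 of the 6 arrays was left out, with adjusted p up to 0.368.

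The next metabolic miRNAs by p did not pass. miR-29a-3p, of a family known for repressing collagen genes, had a change of 0.26 (SE 0.09, limma adjusted p = 0.211), and miR-29c-3p had 0.12. miR-208b-3p, encoded within the slow myosin gene Myh7, had 1.25 with a wide error (SE 0.53, limma adjusted p = 0.263). miR-23a-3p and miR-26a-5p had 0.17 and 0.19, miR-185-5p 0.14 and miR-181c-5p, known to act on a mitochondrial transcript, -0.10. Of the 30, 8 were well above background on 0 arrays, among them miR-33-5p, an intronic miRNA of the sterol regulator Srebf2, and the liver miRNA miR-122-5p.

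Heart muscle miRNAs, which mark the cells in which miR-378a-3p is known to act on Igf1r, gave 0 of 7 past the threshold in limma, against 3.38% of all tested miRNAs, and 0 at an unadjusted p under 0.05, against 19%. With 7 members these counts are near the shares over all tested miRNAs. Their median change was 0.07, against 0.02 over all tested miRNAs, with 6 above 0 and 1 below. Whether that count of directions differs from the one over all tested miRNAs was not tested. miR-1a-3p and miR-133a-3p, the main muscle miRNAs, had 0.06 (SE 0.06) and 0.11 (SE 0.07), and miR-133b-3p had 0.07. miR-133a-5p had 0.13 (SE 0.06), higher on all 3 sunitinib arrays than on any control array without passing (limma adjusted p = 0.331). miR-499-5p and miR-208a-3p, encoded within the myosin genes Myh7b and Myh6, had 0.02 and -0.01. miR-208b-3p, the remaining one tested, is given above; the muscle and metabolic lists share it with miR-208a-3p and miR-499-5p.

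**Figure D4:**
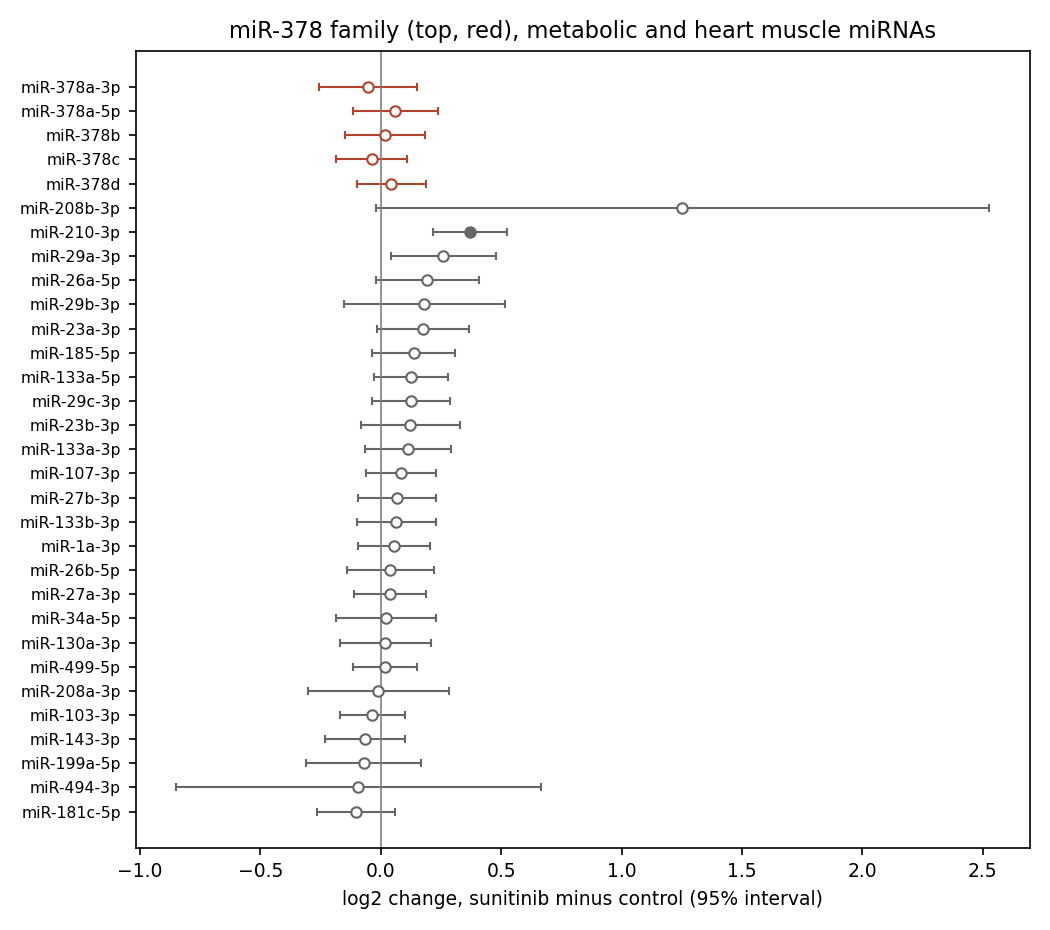
Log2 changes, sunitinib minus control, with 95% intervals from limma, of the 5 miR-378 family members (red, top) and of the tested metabolic and heart muscle miRNAs (grey); filled points passed an adjusted p of 0.05. miR-210-3p, at 0.37, is the only filled point, and the widest interval is that of miR-208b-3p.

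No member passed under another processing. Over 110 alternative fits of single members, 22 for each, 0 passed an adjusted p of 0.05, and the lowest adjusted p was 0.31. Changes ran from -0.13 to 0.02 for miR-378a-3p, 0.02 to 0.11 for miR-378a-5p, -0.06 to 0.06 for miR-378b, -0.16 to -0.01 for miR-378c and 0.02 to 0.08 for miR-378d. miR-378a-5p and miR-378d stayed above 0 and miR-378c below 0 in all 22, but none of these changes passed. Some of the 22, such as the replicate block and the fit without a filter, alter only the error or the set tested. These returned the reported change, so they say nothing on its sign. Only 1 sunitinib array shared a slide row with the controls, so row and treatment cannot be told apart for the other sunitinib arrays. Within that row the differences were 0.02 for miR-378a-3p, 0.10 for miR-378a-5p, -0.03 for miR-378b, -0.06 for miR-378c and 0.03 for miR-378d.

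**Figure D5:**
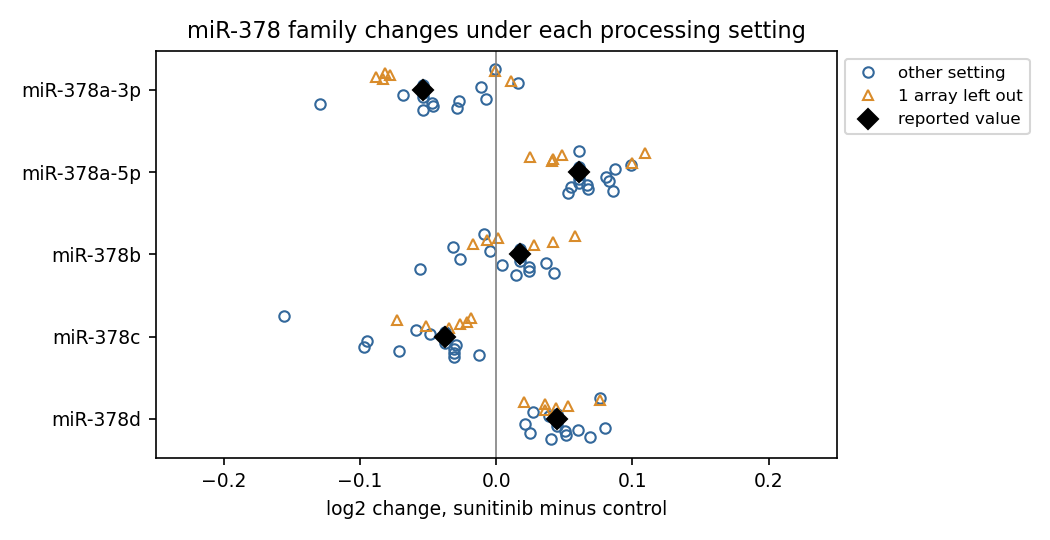
Log2 change, sunitinib minus control, of each miR-378 family member as reported (black diamonds), under other processing settings (blue circles) and with 1 array left out (orange triangles), spread vertically for legibility. All values lie between -0.16 and 0.11, and those of miR-378a-3p and miR-378b fall on both sides of 0.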

How the data were processed

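The deposited scanner files hold spot intensity on a linear scale, from which the scanner software had subtracted the background. That software was Feature Extraction of Agilent, version 10.7.1.1 with build mm9 per the file headers and 10.7 per the submitters' processing notes. The deposited value table holds log2 values processed by the authors; the sources used here do not give their scale or centring (column medians 2.199, 2.200 and 2.196 in sunitinib and 2.196, 2.195 and 2.196 in control); it served as an alternative.

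Control spots and spots flagged as outliers were left out, leaving 13 to 15 of 15 spots per family probe. Signals were scaled to the 75th percentile over 393 probes well above background on all arrays, floored at 1, turned into log2 values and then averaged per probe. The brightest probe stood for its miRNA, and 237 miRNAs that every array of at least 1 group detected well above background were tested with limma 3.58.1 in R 4.3.3. The number of arrays limits the precision. All 5 members were named; of each list up to 8 by unadjusted p and any that passed, and the 4 profiles nearest to miR-378a-3p. Members and lists were chosen with earlier results of these data known.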

Additional observations from a re-analysis of the deposited data

How the results depend on the processing

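Of the 5 members 0 passed under any alternative, and of the heart muscle miRNAs 0. The sign of miR-378b turned with quantile normalization (-0.0558), the deposited value table (-0.0267), the slide row as a block (-0.0314), array weights (-0.0046) and its other probe (-0.0087), and ran from -0.0170 to 0.0578 without 1 array. That of miR-378a-3p turned with the slide row as a block (0.0160) and ran from -0.0882 to 0.0111 without 1 array; the cause was not tested. The miR-378a arm difference was below 0 in all 15 alternatives (-0.18 to -0.09), but most of them could not turn its sign. A change of scaling cancels in a within-array difference, which stayed at -0.11 without scaling. As the groups did not overlap, leaving out 1 array could not turn the sign either. It was -0.18 with quantile normalization, -0.09 with the mean of all probes and -0.15 in the deposited value table. The count of 4 higher miRNAs became 2 with normexp, 0 with quantile normalization, 1 without scaling, 1 with the summed signal, 0 without a filter, 0 with the slide row as a block and 0 to 5 without 1 array. The count of 4 lower became 2 with normexp, 7 with the mean of all probes, 1 with the summed signal, 7 when arrays were weighted, 1 with the slide row as a block and 2 to 3 without 1 array. The 1 metabolic miRNA became 0 with normexp, the percentile over all probes, quantile normalization, no scaling, the mean of all probes, the summed signal, no filter and the slide row as a block, and 0 to 0 without 1 array. Same-numbered samples need not be paired (correlations of deviations 0.18, 0.22 and -0.06; 3 of 6 samples correlated best with their own number). With the replicate block 0 miRNAs were higher, 2 lower and 0 of the metabolic miRNAs passed; the replicate block left 0 members past the threshold.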
